A study of Mus musculus with 2 samples.

Results

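The genes described here are 10 members of the bone morphogenetic protein (BMP) pathway and its transcriptional readout in imiquimod-treated mouse back skin. They are the ligands Bmp2 and Bmp4, the secreted antagonist Grem1, the pseudoreceptor Bambi, the inhibitory Smads Smad6 and Smad7, and the inhibitor of DNA binding genes Id1, Id2, Id3 and Id4. They make up 10 of the 31053 genes in the count tables and were found there by symbol. The set was chosen on earlier results of these same data, in which Id1 and Id4 were among the genes with more transcript in keratinocytes of the KO library. The values of the members between the libraries are therefore a description of the genes chosen.

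BMP ligands bind a complex of type I and type II receptor kinases, which phosphorylate Smad1 and Smad5. These enter the nucleus with Smad4 and switch on target genes, among which the Id genes are the best known. Id proteins lack a DNA-binding region and hold E proteins away from DNA, which restrains differentiation programmes. Smad6, Smad7 and Bambi are induced by the same signals and dampen them, and Grem1 binds BMP2 and BMP4 outside the cell. In skin, BMP signalling is known for holding hair follicle stem cells at rest and for promoting differentiation in the hair shaft and the epidermis.

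The study set imiquimod-treated skin lacking Chrna5, which encodes a subunit of nicotinic acetylcholine receptors, against imiquimod-treated wild-type skin. The KO group were female Chrna5-/- mice, backcrossed for over 10 generations to C57BL/6N and aged 6 to 8 weeks. They received 62.5 mg of 5% imiquimod cream, a Toll-like receptor agonist that inflames the skin, on the shaved back on 6 days, and skin was taken on day 7. The WT group were female wild-type mice of the same age and with the same cream and times. The strain is given as C57BL/6 for both groups, and the protocols name both C57BL/6N and C57BL/6J mice. Each group had 5 mice, and whether their cells were pooled is not stated. Skin without its fat was digested with collagenase, and cells that excluded SytoxBlue were sorted as live. An arm that received the cream base is not analysed here.

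Each group is 1 droplet single-cell library, so every difference below is one between 2 libraries with no replicate check, and no p-value is given. Genotype and all else that differed between the 2 preparations cannot be told apart. The KO library held 10886 barcodes and 123839924 unique molecular identifiers (UMIs, 1 for each captured transcript), and the WT library 14557 barcodes and 147260653 UMIs. Filters left 10233 KO cells (median 6374 UMIs each) and 13938 WT cells (median 4603 UMIs each). The libraries shared 49 barcodes. Chrna5 itself had 6 UMIs in KO cells and 12 UMIs in WT cells, a ratio of 0.596 (0.1835 to 1.715), with 1 and 9 of them in keratinocytes. That is too sparse to check the genotype labels. The UMIs come from the 3' end of transcripts, and where the deletion lies in Chrna5 is not stated, so a transcript of the deleted gene may still be counted.

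Cells were assigned to 13 cell classes by marker genes, none of them a member, and 9 classes with at least 50 cells in each library were compared. Keratinocytes numbered 3793 in KO and 8583 in WT, with median depths of 14113 and 2742 UMIs, and fibroblasts 2468 and 2202, with 6643.5 and 7425.5 UMIs. The other classes held 716 and 773 macrophages, 359 and 145 T cells, 166 and 68 vascular endothelial cells, 126 and 74 lymphatic endothelial cells, 74 and 63 melanocytes, and 130 and 94 sebaceous cells, each in KO and WT. Dermal papilla-like cells numbered 189 in KO and 115 in WT, with median depths of 43153 and 7099 UMIs. Of their markers, Corin was not seen in WT, while Lef1, Crabp1, Rspo3 and Hhip were well detected in both libraries. Pericytes (150 and 39 cells), Schwann cells (161 and 28), mast cells (40 and 33) and Langerhans cells (37 and 30) were not compared. In the other compared classes, all gate markers were seen in both libraries.

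Orders of classes are over the 9 compared ones unless another class is named. Levels are in CPM, the UMIs of a gene per 1000000 UMIs of the class in a library, and ratios are KO over WT with an exact 95% interval. All intervals cover counting error alone. RNA free in the droplets gives every class some UMIs of genes it does not express, so a level under 20% of that in the highest of the 9 classes in its library is given with that percentage where the text leans on it. A gene was called higher or lower in KO where both libraries together held at least 20 UMIs, the ratio was 1.5-fold or more, and its interval left out 1. Genes that reach 20 UMIs are called measured. Over all kept cells, 9 of the 10 members were called higher and 0 lower, where 21.4% of all measured genes were called higher and 7.38% lower. The median log2 ratio of all measured genes was 0.20 over all kept cells and lay between -0.04 and 0.17 in the 9 classes. These sums mix the level in a cell with the make-up of the library, and fewer cells of a type cannot be told apart there from less RNA per cell.

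In keratinocytes 8 of 10 members were called higher and 1 lower in KO, where 12.4% of all measured genes were called higher and 11.2% lower. The 8 were all 4 Id genes, Smad7, Bambi, Bmp2 and Bmp4, and the lower one was Grem1. In fibroblasts 6 of 10 were called higher and 1 lower, beside 13.2% and 7.38% of all measured genes. Macrophages had 3 of 8 measured members higher (11.2% of all measured genes) and 0 lower (7.82%). In T cells 3 of 5 were higher (9.81%) and 0 lower (4.19%). Among vascular endothelial cells 6 of 7 were higher (10.7%) and 0 lower (12.9%), and among lymphatic endothelial cells 4 of 5 were higher (9%) and 0 lower (5.57%). With vascular cells named by clusters (390 KO and 126 WT cells), the calls of Id1 (1.10), Id3 (1.06) and Bmp2 (1.37) were lost. Markers of pericytes summed in the gated vascular class were at 673.8 CPM in KO and 167.4 CPM in WT, and their part in this count was not tested. Melanocytes had 4 measured members and no call either way (7.93% and 4.53%). Dermal papilla-like cells had 4 of 10 higher (11.1%) and 1 lower (16.4%), and sebaceous cells 2 of 7 higher (9.83%) and 2 lower (7.69%). Over the 9 classes the 4 Id genes were called higher in 20 of 31 measured values and lower in none. Grem1 was called lower in 4 of 5 and higher in none. The shares over all measured genes ran from 7.93% to 13.2% higher and from 4.19% to 16.4% lower in these classes. Outside fibroblasts, the Grem1 calls came at 0.5885% to 4.07% of the fibroblast level, which free RNA can reach. Several Id calls in small classes were lost in alternatives.

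**Figure D1:**
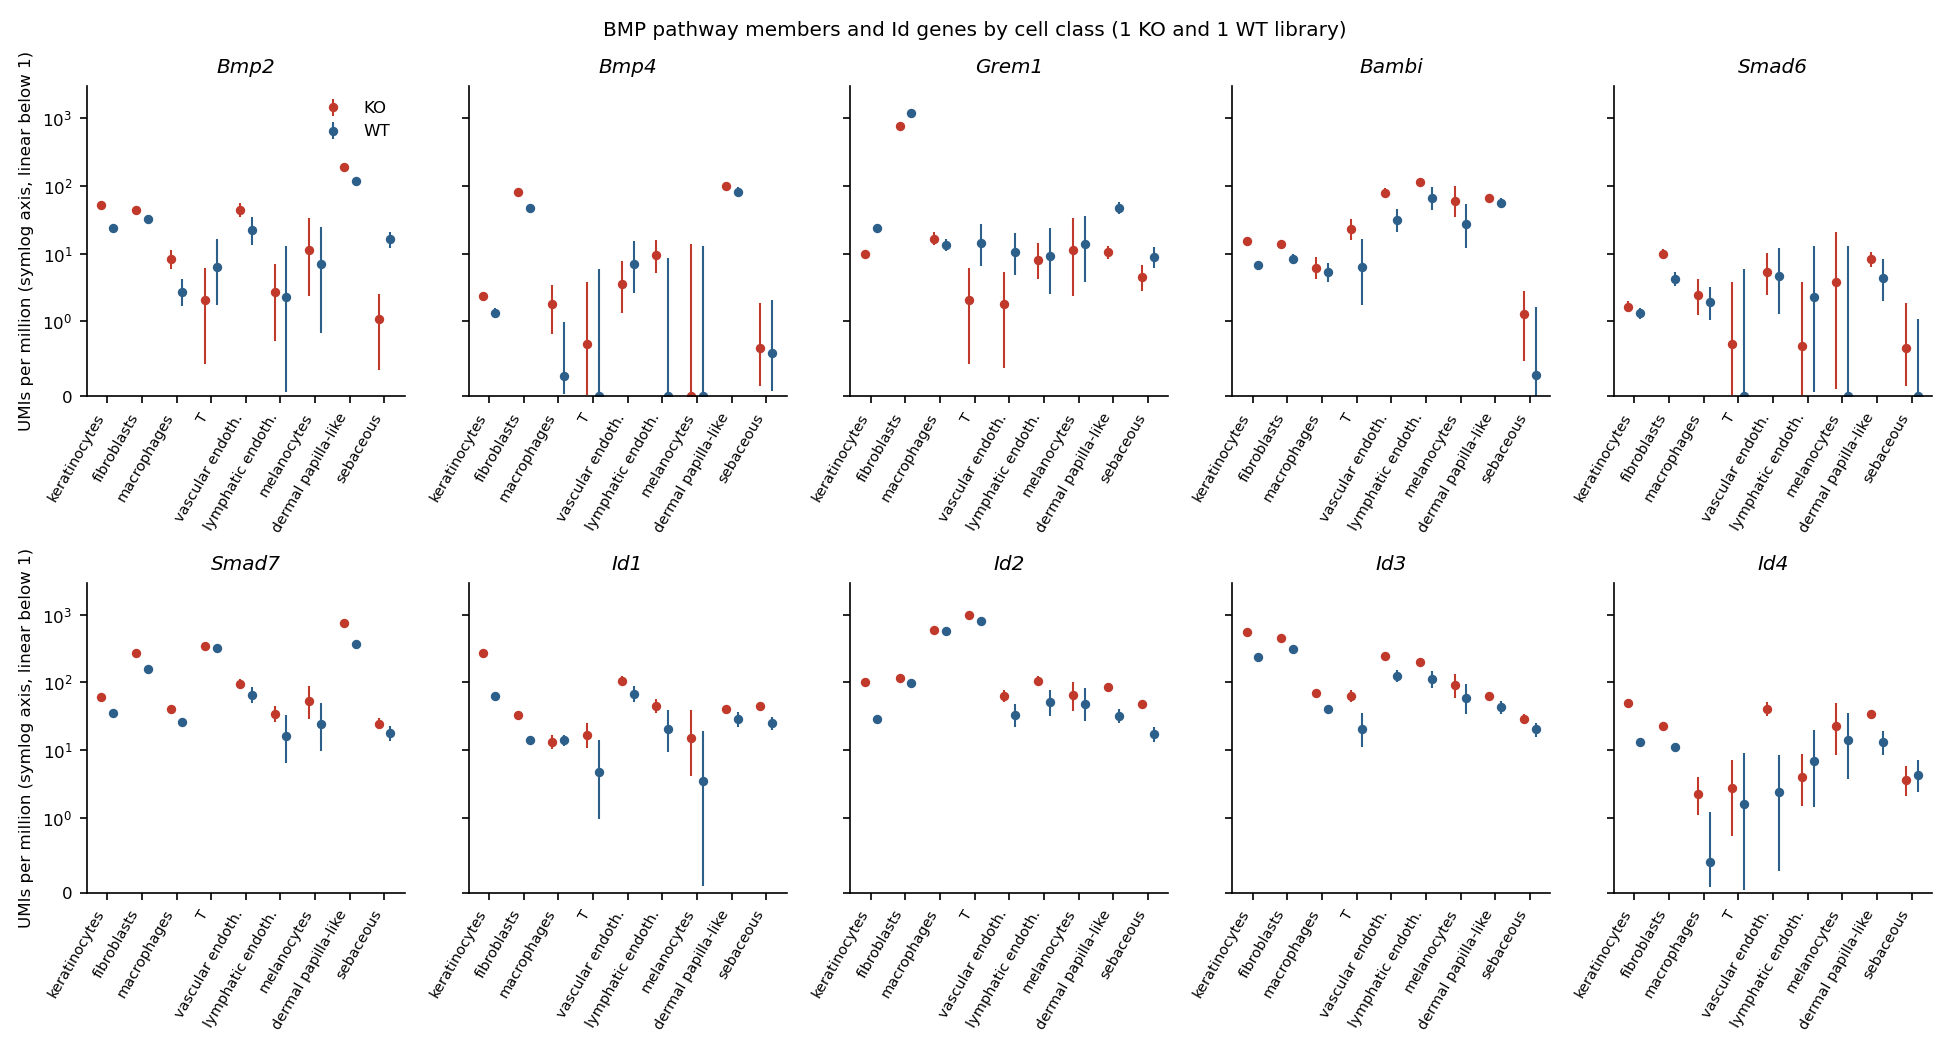
Level of each of the 10 members (CPM, symlog axis that is linear below 1) in the 9 compared cell classes, with the KO library in red left of the WT library in blue; bars are exact 95% Poisson intervals. Bmp4 and Grem1 are concentrated in mesenchymal classes and Id2 in T cells and macrophages, and Id1 in keratinocytes stands at 270.8 in KO and 63.3 in WT.

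Bmp2 (ENSMUSG00000027358, chr2:133552159-133562885, plus strand, mm10), a BMP ligand of the follicle and the dermis, had its highest level in dermal papilla-like cells in both libraries. It stood there at 190.6 CPM in KO and 118.4 CPM in WT, 1.61-fold higher (1.41 to 1.85). After thinning to 1000 UMIs a cell the ratio was 0.744, and with each cell weighted alike it was 1.45, neither called. In keratinocytes Bmp2 was at 51.5 CPM in KO and 24.02 CPM in WT, 2.14-fold higher (2.04 to 2.26). Fibroblasts had 44.2 CPM in KO and 32.5 CPM in WT, a ratio of 1.36 (1.22 to 1.52) that was not called. Vascular endothelial cells had 74 UMIs in KO and 19 in WT, 1.99-fold higher (1.19 to 3.48). Macrophages were called as well, but 17 of their 41 KO UMIs and 10 of their 20 WT UMIs came from 1 cell of each library. Their level of 8.22 CPM in KO and 2.725 CPM in WT was 4.31% and 2.30% of that in dermal papilla-like cells of the same library, a size that free RNA in the droplets can give. T cells, which are not a known source of the ligand, held 3 and 4 UMIs.

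Sebaceous cells went the other way for Bmp2, with 5 UMIs (1.07 CPM) in KO and 56 UMIs (16.2 CPM) in WT. Of the 56 WT UMIs, 47 (83.9%) were in a single cell. The level in KO was 0.560% of that in dermal papilla-like cells, and in WT 13.65%.

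Within keratinocytes, Bmp2 was highest in follicle cells marked by Krt75 and Cldn3 (149 KO and 63 WT cells), keratins and claudins of the inner follicle layers. There it stood at 343.8 CPM in KO and 99.35 CPM in WT, 3.46-fold higher (2.87 to 4.20). The inner root sheath keratins Krt71, Krt25, Krt27, Krt28 and Krt73 were below 1 CPM in the KO cells, and Krt27 was at 0.4205 CPM in KO and 22.5 CPM in WT and Krt71 at 0.4205 and 1.67 CPM, so the group is named by the genes it did express. Outer follicle cells with Lhx2 and Sox9 (602 and 1110 cells) had 88.2 CPM in KO and 61.0 CPM in WT, a ratio of 1.45 (1.31 to 1.60). Basal cells had 28.4 and 24.2 CPM and suprabasal cells 18.1 and 15.0 CPM, neither called. Upper follicle cells with Krt79 had 18.2 CPM in KO and 6.51 CPM in WT, 2.80-fold higher (2.35 to 3.35), at 9.57% and 5.50% of the level in dermal papilla-like cells. Bmp2 was thus called higher in the Krt75 and Cldn3 cells and in the upper follicle, and the outer follicle, basal and suprabasal cells were below 1.5-fold. The Krt75 and Cldn3 cells were 149 of 3793 KO and 63 of 8583 WT keratinocytes. Both their Bmp2 level and their share therefore enter the ratio over all keratinocytes, and the part of each was not tested.

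Bmp4 (ENSMUSG00000021835, chr14:46383520-46390669, minus strand), a ligand made mainly by mesenchyme, was found mainly in dermal papilla-like cells and fibroblasts. Fibroblasts had 1365 UMIs (81.5 CPM) in KO and 818 UMIs (47.8 CPM) in WT, 1.705-fold higher (1.56 to 1.86). The dermal papilla-like cells had 98.9 CPM in KO and 82.5 CPM in WT, a ratio of 1.20 (1.02 to 1.42), not called. In the KO library the level of fibroblasts was 82.35% of that of dermal papilla-like cells, and in the WT library 57.95%. Keratinocytes were called higher at 2.33 CPM in KO and 1.33 CPM in WT, but this was 2.35% and 1.62% of the level in dermal papilla-like cells, which free RNA can reach, and after thinning the ratio was 1.03. Melanocytes held 0 Bmp4 UMIs in either library, with upper interval ends of 14.0 CPM in KO and 12.8 CPM in WT. The gene overlaps the gene models Gm15217 and Gm15222 on the other strand.

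Of the 14 BMP ligand genes listed, 7 were measured in keratinocytes, and 3 were called higher and 0 lower with a median log2 ratio of 0.40, beside 0.04 for all measured genes. Of all measured genes there, 12.4% were called higher and 11.2% lower. Besides both members the other one was Bmp6, a ligand of the upper epidermis, at 4.67 CPM in KO and 1.65 CPM in WT. In fibroblasts 1 of 7 was called higher, Bmp4 itself, and 0 lower (median 0.40, beside 0.09 for all measured genes), near the 13.2% of all measured genes called higher. The ligand gene with the most UMIs there was Bmp1, which encodes a protease rather than a signalling ligand, at 136.0 CPM in KO and 159.1 CPM in WT, not called.

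Grem1 (ENSMUSG00000074934, chr2:113746164-113758646, minus strand), the secreted BMP antagonist gremlin, was a fibroblast gene in both libraries. Fibroblasts had 12752 UMIs (761.2 CPM) in KO and 20166 UMIs (1178.3 CPM) in WT, 1.55-fold lower in KO (1.51 to 1.58). After thinning, 25.8% of KO and 39.4% of WT fibroblasts held a Grem1 UMI. Macrophages, which should lack it, held one in 0.721% and 1.19% of cells. The Pi16 and Dpp4 fibroblasts (409 KO and 252 WT cells) had 414.6 CPM in KO and 595.3 CPM in WT, a ratio of 0.696 (0.642 to 0.755). Fibroblasts of neither marked subset (1849 and 1911 cells) had 924.5 and 1275.7 CPM, a ratio of 0.725 (0.708 to 0.742). Neither subset reached the 1.5-fold rule alone. A subset with Fmod and Tnmd (210 KO and 39 WT cells, not compared) stood at 52.2 CPM in KO and 290.4 CPM in WT, where 1 cell held 88.2% of the UMIs. That subset, lowest in Grem1, had 210 of 2468 KO and 39 of 2202 WT fibroblasts, so both the level within subsets and their shares differed between the libraries.

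In dermal papilla-like cells Grem1 had 82 UMIs (10.4 CPM) in KO and 100 UMIs (47.95 CPM) in WT, 4.62-fold lower (3.42 to 6.27), and 63 of the 100 WT UMIs were in 1 cell. These levels were 1.36% and 4.07% of those in fibroblasts of the same library, which free RNA can reach. In keratinocytes Grem1 was at 9.77 CPM in KO and 24.1 CPM in WT, a ratio of 0.406 (0.373 to 0.441) called lower. That was 1.28% and 2.04% of the level in fibroblasts of the same library. Fibroblast markers summed in keratinocytes were at 130.3 CPM in KO and 254.3 CPM in WT, moving the same way as Grem1. In the largest keratinocyte cluster shared by both libraries Grem1 was not called, at 24.6 CPM in KO and 22.4 CPM in WT. The part of free RNA in the keratinocyte value was not tested. Sebaceous cells were called lower with 21 UMIs in KO and 31 in WT, of which 22 were in 1 WT cell. Their levels were 0.5885% and 0.759% of those in fibroblasts. With each sebaceous cell weighted alike the ratio was 1.70, called higher. Pericytes, which were too few to compare, had 79 UMIs (123.3 CPM) in KO and 6 UMIs (21.4 CPM) in WT.

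Of the 15 listed antagonists and modulators, 13 were measured in keratinocytes, where 4 were called higher and 3 lower (median log2 ratio 0.50), beside 12.4% and 11.2% of all measured genes. Fst, encoding the activin and BMP binding protein follistatin, had the most UMIs at 991.2 CPM in KO and 656.6 CPM in WT, 1.51-fold higher (1.49 to 1.53). Sostdc1, encoding a BMP and Wnt antagonist of the follicle, had the largest ratio with 28.4 and 12.05 CPM, 2.36-fold higher (2.20 to 2.535). In fibroblasts 2 of 14 were higher and 1, Grem1, lower (median 0.24), near the 13.2% and 7.38% of all measured genes. Fstl3, a follistatin-like binding protein, was at 18.0 CPM in KO and 4.50 CPM in WT, 4.01-fold higher (3.11 to 5.22), while Fst stood at 2007.7 and 1580.7 CPM and was not called.

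Bambi (ENSMUSG00000024232, chromosome 18), a transmembrane protein like a type I receptor without its kinase, was highest in lymphatic endothelial cells among the 9 compared classes. They had 113.1 CPM in KO and 66.5 CPM in WT, 1.70-fold higher (1.14 to 2.62). In vascular endothelial cells it was at 79.3 CPM in KO and 31.8 CPM in WT, 2.49-fold higher (1.64 to 3.92). After thinning the ratios were 1.36 and 2.49, neither called. Keratinocytes had 15.5 CPM in KO and 6.70 CPM in WT, 2.31-fold higher (2.10 to 2.545), with the outer follicle highest at 54.1 and 17.3 CPM. Fibroblasts had 13.7 and 8.41 CPM, 1.625-fold higher in KO (1.31 to 2.02). Both classes were at 10.1% to 13.7% of the lymphatic level. Among keratinocytes the upper follicle lay just inside the call rule at a ratio of 1.503 and basal cells, at 8.91 and 5.94 CPM, just outside it. Dermal papilla-like cells had 66.3 and 56.1 CPM, which was not called. In T cells 33 KO and 4 WT UMIs gave a called ratio of 3.575, though the interval runs from 1.27 to 13.9. Of the 33 KO UMIs, 7 were in 1 cell, and the WT level was 9.60% of the lymphatic one, which free RNA can reach. After thinning the T cell ratio was 2.63 and not called. Sebaceous cells held 6 and 1 UMIs and were not measured.

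Smad6 (ENSMUSG00000036867, chr9:63953076-64022059, minus strand), the inhibitory Smad that acts mainly on BMP signals, had few UMIs. Fibroblasts had 167 UMIs (9.97 CPM) in KO and 72 UMIs (4.21 CPM) in WT, 2.37-fold higher (1.79 to 3.17), and this was its single call in the 9 classes. The Pi16 and Dpp4 fibroblasts had 10.7 CPM in KO and 2.96 CPM in WT, and the remaining fibroblasts 10.6 and 4.46 CPM, each called higher. Keratinocytes held 118 UMIs (1.64 CPM) in KO and 136 UMIs (1.30 CPM) in WT, a ratio of 1.26 (0.976 to 1.62). Among keratinocyte subsets the outer follicle was called, at 4.295 CPM in KO and 2.48 CPM in WT, while basal cells had 1.20 and 1.29 CPM. Smad6 lies 8.95 Mb from Chrna5 on the same chromosome. No other member shares that chromosome, and how much DNA around the deleted gene differs in origin between the groups is not stated.

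Smad7 (ENSMUSG00000025880, chromosome 18), the inhibitory Smad that answers both BMP and TGF-beta signals, was highest in dermal papilla-like cells. They had 6060 UMIs (766.8 CPM) in KO and 764 UMIs (366.3 CPM) in WT, 2.09-fold higher (1.94 to 2.26). T cells came next with 344.7 CPM in KO and 324.3 CPM in WT, whose intervals overlap. Fibroblasts had 274.1 CPM in KO and 158.2 CPM in WT, 1.73-fold higher (1.65 to 1.82), and keratinocytes 60.3 and 35.0 CPM, 1.72-fold higher (1.65 to 1.80), at 7.86% and 9.55% of the dermal papilla-like level. Macrophages had 40.1 and 26.3 CPM, 1.52-fold higher in KO (1.245 to 1.87), just inside the rule and at 5.23% and 7.18% of the highest class. Just outside it lay vascular endothelial cells, with 95.6 and 66.0 CPM and a ratio of 1.45 (1.06 to 2.00). In keratinocytes 5 of 6 subsets were called higher for Smad7, and the unmarked remainder had 48.5 and 49.9 CPM.

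The 11 listed BMP receptor and coreceptor genes were all measured in keratinocytes, and 4 were called higher and 0 lower (median log2 ratio 0.44). Bmpr2, the type II receptor, had the most UMIs at 172.4 CPM in KO and 107.4 CPM in WT, 1.605-fold higher (1.56 to 1.65). In fibroblasts 3 of 10 were higher and 0 lower (median 0.41), the largest ratio being that of Acvrl1, an endothelial type I receptor, with 15.5 and 7.77 CPM. Among Smads and their ubiquitin ligases 1 of 7 was higher in keratinocytes (median 0.32) and 2 of 8 in fibroblasts (median -0.08), with 0 lower, and the called ones were the members Smad7 and Smad6. In keratinocytes that is near the 12.4% of all measured genes called higher, and in fibroblasts the share over all measured genes was 13.2%. Smad1, the BMP effector itself, stood at 108.4 CPM in KO and 96.5 CPM in WT keratinocytes and was not called.

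The start regions of 6 of the 10 members matched an entry in the RefSeq promoter table (GRCm38.p6, which is mm10). Those of Id2, Id3 and Id4 are shown, since the Id genes carry the differences that follow. Each is the 250 bases before the RefSeq start, 5′ to 3′ on the gene's strand. For Id2, Id3 and Id4 that start differs from the outer end of the GENCODE gene span given with each gene. The windows of Id2 and Id3 lie inside that span, and the window of Id4 ends at 48261115, before its span begins at 48261228. Capitals mark GGCGCC, a GC-rich Smad1 and Smad5 motif that reads the same on both strands, and CAGAC, a Smad4 motif, or its reverse complement GTCTG. The windows are chr12:25096093-25096342 (minus strand) for Id2, chr4:136143572-136143821 (plus strand) for Id3 and chr13:48260866-48261115 (plus strand) for Id4.
Id2: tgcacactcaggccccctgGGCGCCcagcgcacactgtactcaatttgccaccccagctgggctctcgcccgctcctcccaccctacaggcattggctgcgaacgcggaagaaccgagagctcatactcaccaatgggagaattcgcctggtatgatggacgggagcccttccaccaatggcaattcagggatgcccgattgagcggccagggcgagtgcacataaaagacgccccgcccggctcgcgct
Id3: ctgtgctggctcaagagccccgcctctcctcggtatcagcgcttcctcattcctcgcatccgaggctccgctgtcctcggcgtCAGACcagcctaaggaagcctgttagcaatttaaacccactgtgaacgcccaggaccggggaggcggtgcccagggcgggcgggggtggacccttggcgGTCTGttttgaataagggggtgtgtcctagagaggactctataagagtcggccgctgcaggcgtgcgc
Id4: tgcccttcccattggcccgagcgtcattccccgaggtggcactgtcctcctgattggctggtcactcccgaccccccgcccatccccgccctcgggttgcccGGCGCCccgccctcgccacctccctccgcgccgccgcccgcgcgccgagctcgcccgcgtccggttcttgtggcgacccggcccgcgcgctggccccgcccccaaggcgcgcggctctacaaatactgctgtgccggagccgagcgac
GGCGCC began 231 bases before the start in Id2 and 148 bases before it in Id4. CAGAC or GTCTG began 167 and 68 bases before the start in Id3. Over all 32851 RefSeq windows of this length, 9.59% held GGCGCC and 42.2% held CAGAC on either strand. The Grem1 window held 1 of each, and those of Smad6 and Bmp4 held neither. A match is a match of letters and says nothing of binding, and the known BMP elements of the Id genes may lie elsewhere.

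Id1 (ENSMUSG00000042745, chr2:152736251-152737410, plus strand) was the member with the largest difference in keratinocytes. There it had 19444 UMIs (270.8 CPM, 267 to 275) in KO and 6599 UMIs (63.3 CPM, 61.8 to 64.8) in WT, 4.28-fold higher (4.16 to 4.40). Thinned to 1000 UMIs each, 18.1% of KO keratinocytes and 5.25% of WT keratinocytes held an Id1 UMI, against 1.30% and 1.19% of macrophages, a class with little Id1. In the KO library keratinocytes had the highest Id1 of the 9 classes, whereas in WT vascular endothelial cells (67.2 CPM) and keratinocytes (63.3 CPM) stood level within their intervals. Fibroblasts had 33.1 CPM in KO and 14.3 CPM in WT, 2.32-fold higher (2.00 to 2.71), at 12.2% and 21.2% of the highest class. Macrophages did not differ by the rule, at 13.2 CPM in KO and 13.9 CPM in WT, with an interval of the ratio of 0.688 to 1.31.

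Among keratinocyte subsets the Id1 ratio ran from 2.40 to 9.79, and all 6 were called higher in KO. The Krt75 and Cldn3 cells had 514.9 CPM in KO and 52.6 CPM in WT, 9.79-fold higher (7.62 to 12.8). Suprabasal cells with Krt1 and Krt10 (172 and 733 cells) had 511.7 CPM in KO and 60.4 CPM in WT, 8.48-fold higher (7.83 to 9.19). Their own markers differed as well, with Krt10 at 4803 CPM in KO and 1151 CPM in WT, Krt1 at 4666 and 1822 CPM and Mt4 at 308.5 and 17.95 CPM, so the cells of this subset differed between the libraries in its defining genes. These were the subsets where KO and WT lay farthest apart, and neither was the highest in WT. Their depth differed too, with medians of 27304 UMIs in KO and 2437 in WT suprabasal cells. The Krt75 and Cldn3 cells had medians of 20438 and 10257 UMIs, while the outer follicle had 7151.5 and 8244 UMIs. The part of depth in the order of these ratios was not tested. The outer follicle had 479.7 and 97.7 CPM (4.91-fold), and basal cells (1107 and 3448 cells) had 107.2 and 28.9 CPM (3.71-fold). The upper follicle (1210 and 2375 cells), which had the highest WT level, stood at 307.4 CPM in KO and 107.7 CPM in WT (2.855-fold). Keratinocytes of no marked subset (553 and 854 cells) had 59.9 and 24.9 CPM (2.40-fold).

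Id2 (ENSMUSG00000020644, chr12:25093799-25097140, minus strand), which lymphocytes and myeloid cells also need, had another order of classes. T cells were highest with 1008 CPM in KO and 817.9 CPM in WT, a ratio of 1.23 (1.11 to 1.37), and macrophages next with 591.4 and 577.1 CPM, a ratio of 1.025 (0.9775 to 1.07). Neither was called. Keratinocytes had 100.9 CPM in KO and 29.3 CPM in WT, 3.45-fold higher (3.305 to 3.60), and fibroblasts 117.8 and 97.4 CPM, not called. The keratinocyte level was 10.0% of the T cell level in KO and 3.58% in WT. After thinning, 12.8% of KO and 6.09% of WT keratinocytes held an Id2 UMI. In keratinocyte subsets the outer follicle had most Id2, with 395.9 CPM in KO and 92.5 CPM in WT. The Krt75 and Cldn3 cells had the largest ratio, 7.67-fold (5.56 to 10.9), from 243.5 and 31.7 CPM. Id2 was also called higher in vascular (63.1 and 33.0 CPM) and lymphatic endothelium (105.7 and 50.5 CPM), dermal papilla-like cells (84.5 and 32.1 CPM) and sebaceous cells (47.4 and 17.3 CPM), at 2.12% to 10.5% of the T cell level. All 4 of these calls were lost after thinning, which left ratios of 1.04, 4.38, 1.70 and 7.32 in that order.

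Id3 (ENSMUSG00000007872, chr4:136143497-136145755, plus strand), expressed widely in epithelium, stroma and vessels, had 39497 UMIs (550.2 CPM) in KO and 24967 UMIs (239.5 CPM) in WT keratinocytes, 2.30-fold higher (2.26 to 2.33). Fibroblasts had 450.8 CPM in KO and 315.6 CPM in WT, a ratio of 1.43 (1.38 to 1.48), and those of neither marked subset 460.6 and 307.3 CPM, a ratio of 1.499 just outside the rule. Keratinocytes were above fibroblasts in KO and below them in WT, with intervals that did not overlap in either library. Vascular endothelial cells had 247.6 and 125.0 CPM and lymphatic endothelial cells 198.6 and 112.4 CPM, both called higher. The vascular ratio of 1.98 was 1.06 and not called with clusters in place of gates, and the lymphatic ratio of 1.77 was 1.48 with clusters, 1.30 with cells past 2 gates kept and 1.00 with a stricter gate, none of them called. Both calls were also lost after thinning. Pericyte markers, whose sum in the vascular class is given above, belong to the class with the most Id3, and the part of pericyte RNA was not tested. Macrophages (70.15 and 41.1 CPM) and T cells (63.0 and 20.8 CPM) were called too, at 6.58% to 13.04% of the highest class, which free RNA can reach. In the outer follicle, its highest keratinocyte subset, Id3 was at 1539 CPM in KO and 592.1 CPM in WT, 2.60-fold higher (2.53 to 2.67). Pericytes, not compared, had the highest level of any class, 1713 CPM in KO and 2154 CPM in WT.

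Id4 (ENSMUSG00000021379, chr13:48261228-48266026, plus strand), the Id family member known from glial and mammary cells, had 3578 UMIs (49.8 CPM) in KO and 1389 UMIs (13.3 CPM) in WT keratinocytes, 3.74-fold higher (3.52 to 3.98). The outer follicle had 99.1 CPM in KO and 32.6 CPM in WT, and the upper follicle 70.1 and 18.4 CPM. Suprabasal cells had the largest ratio, 7.14-fold (5.42 to 9.51), from 38.4 and 5.38 CPM. Fibroblasts had 22.7 CPM in KO and 11.2 CPM in WT, 2.03-fold higher (1.70 to 2.42), and dermal papilla-like cells 34.2 and 12.95 CPM, 2.64-fold higher (1.77 to 4.08). After thinning these ratios were 1.34 and 1.52, neither called. In vascular endothelial cells 68 KO and 2 WT UMIs gave a ratio of 17.3, with an interval of 4.62 to 146. Of the 68 KO UMIs, 13 were in 1 cell. The log2 ratio of 4.12 was called in all 9 alternatives but ran from 1.29 to 4.89 among them, so its size is uncertain. Pericytes, whose summed markers were higher in KO in that class, had Id4 at 188.9 CPM in KO and 139.1 CPM in WT. The part of pericyte RNA in the endothelial value was not tested. Id4 overlaps the gene models A330033J07Rik and Gm49291 on the other strand.

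**Figure D2:**
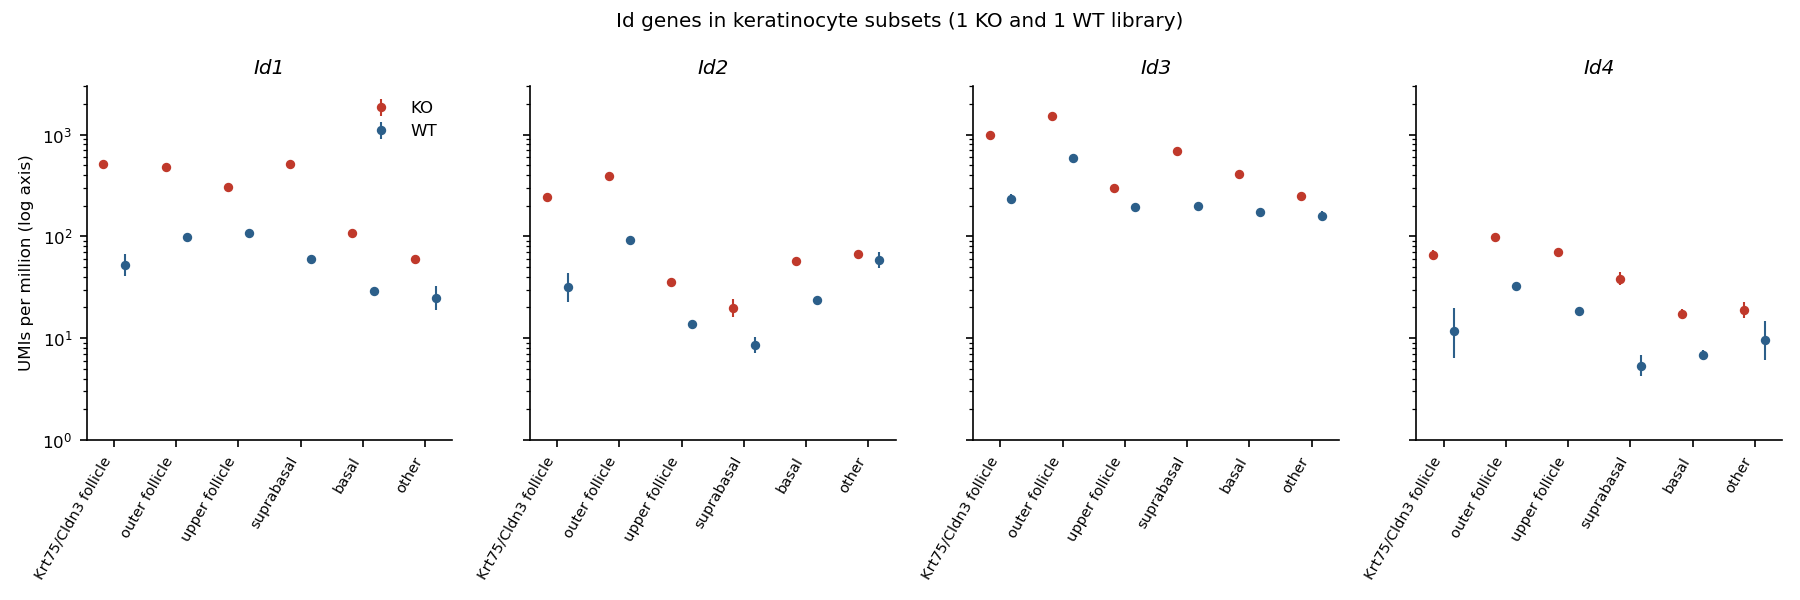
Level of the 4 Id genes (CPM, log axis) in 6 keratinocyte subsets, KO library in red left of WT library in blue, with exact 95% Poisson intervals. KO lies above WT in every subset and gene, by 1.14-fold for Id2 in the unmarked remainder up to 9.79-fold for Id1 in Krt75 and Cldn3 cells.

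All 4 Id genes were called higher in 5 of the 6 keratinocyte subsets and 3 of 4 in the unmarked remainder, where Id2 had 66.8 CPM in KO and 58.6 CPM in WT. Among all members, 7 of 8 measured were called higher in the Krt75 and Cldn3 cells (17.2% of all measured genes there) and 0 lower (8.9%). The outer follicle had 8 of 10 higher (11.3%) and 1 lower (8.06%), the upper follicle 7 of 10 higher (9.11%) and 1 lower (11.8%). Suprabasal cells had 6 of 9 higher (13.2%) and 1 lower (9.94%), basal cells 6 of 10 higher (11.1%) and 1 lower (13.2%), and the remainder 4 of 10 higher (5.76%) and 1 lower (14.5%). The lower member was Grem1 in each. In fibroblasts with Pi16 and Dpp4, 6 of 10 members were higher (8.53%) and 0 lower (6.33%), and in those of neither marked subset 7 of 10 higher (11.5%) and 0 lower (7.58%).

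Within keratinocytes, cells with an Id1 UMI more often also held Id3. After thinning, 367 of 624 KO cells with Id1 held an Id3 UMI (58.8%, 54.8 to 62.7), against 879 of 2815 KO cells without Id1 (31.2%, 29.5 to 33.0). In WT the shares were 142 of 344 cells (41.3%, 36.0 to 46.7) and 1242 of 6206 cells (20.01%, 19.0 to 21.0). Id2 was seen in 25% of KO cells with Id1 and 10.05% of those without, and in 15.1% and 5.59% of WT cells. Id4 was seen in 10.1% (7.85 to 12.7) of KO cells with Id1 and 4.51% (3.775 to 5.345) of those without, and in WT in 2.33% (1.01 to 4.53) and 1.68% (1.37 to 2.03), where the intervals overlap. Id2 and Id3 were thus more frequent in cells with Id1 than in cells without it in the keratinocytes of both libraries, and Id4 in KO. Bmp2 was seen in 7.37% of KO cells with Id1 and 4.51% of those without, and in 3.20% and 3.17% of WT cells.

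Depth differed between the libraries in keratinocytes, so the members were also set side by side within bins of UMIs per cell, chosen after the data had been seen. All 4 Id genes were called higher in all 5 keratinocyte bins, with 5, 7, 8, 4 and 8 members called higher and 0, 0, 1, 1 and 1 lower from the shallowest bin to the deepest. Of all measured genes, 9.81%, 11.8%, 10.9%, 7.62% and 16.3% were called higher and 4.44%, 5.52%, 8.85%, 10% and 10.2% lower in these bins. In cells of 10000 to 20000 UMIs (853 KO and 719 WT), Id1 was at 251.3 CPM in KO and 59.8 CPM in WT, 4.20-fold higher. Id2 had a ratio of 2.07, Id3 of 1.63 and Id4 of 2.175. In the same bin Bmp2 had 43.6 and 41.4 CPM, Smad7 59.2 and 48.7 CPM and Bambi 14.9 and 10.25 CPM, and none of these 3 was called. The 4 Id genes were called in that bin, though the ratios of Id2, Id3 and Id4 were below those over all keratinocytes (3.45, 2.30 and 3.74). The ligand Bmp2 and the feedback genes Smad7 and Bambi were not called there and were called again among cells of 20000 UMIs or more. The make-up of the bins by subset was not matched between the libraries, and the part of depth was not tested.

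In fibroblasts, whose depth was alike between the libraries, Id1 and Id4 were called higher in all 3 bins that held 50 cells of each library. In the bin of 3000 to 10000 UMIs, Id1 had 29.96 CPM in KO and 15.7 CPM in WT and Id4 21.9 and 11.55 CPM. There 5, 5 and 7 members were called higher and 1, 1 and 0 lower, beside 11%, 11.7% and 12.5% of all measured genes higher and 7.81%, 6.9% and 6.99% lower.

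**Figure D3:**
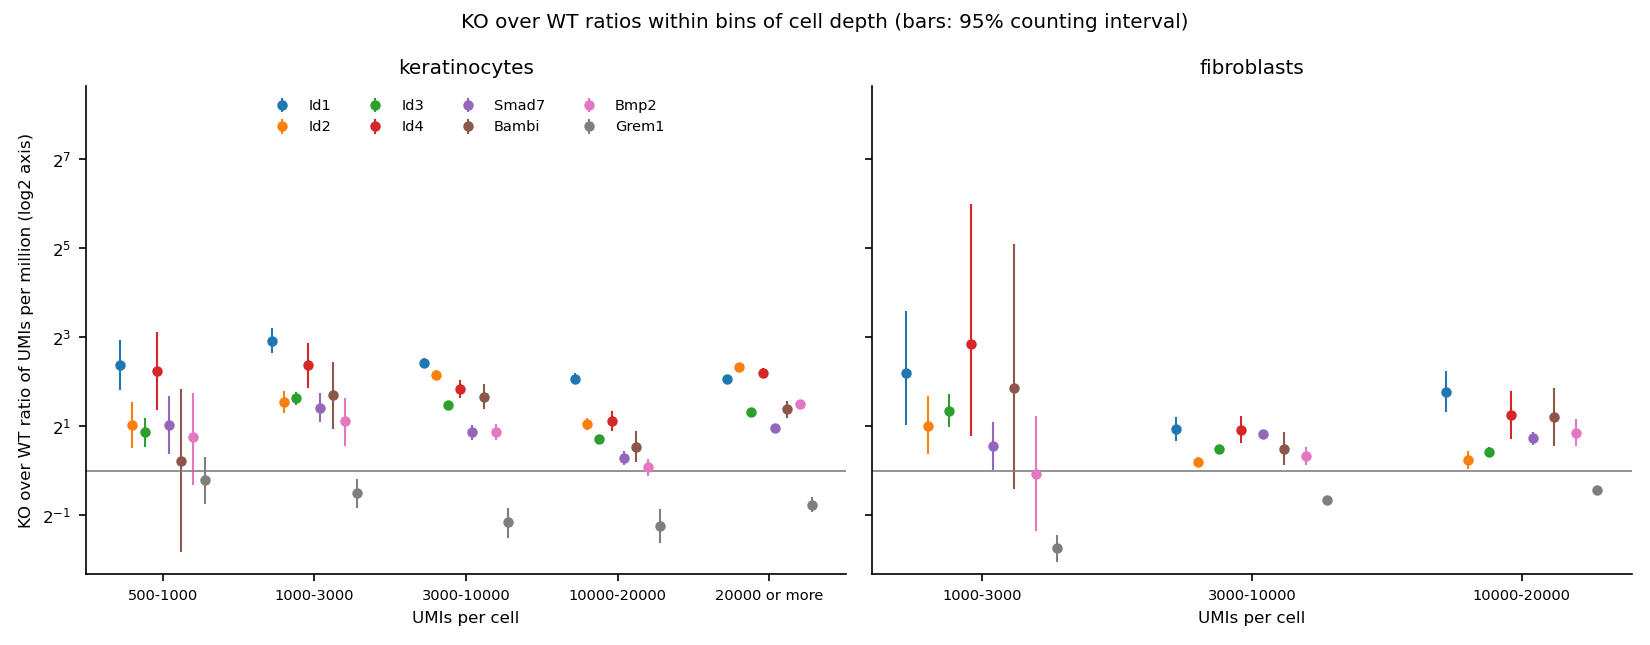
KO over WT ratio of 8 members (log2 axis, with exact 95% counting intervals) in keratinocytes and fibroblasts, by bins of UMIs per cell from shallow on the left to deep on the right. The Id genes lie above 1 in all 5 keratinocyte bins, Grem1 lies below 1 in all 8, and Bmp2 is at 1.05 in keratinocytes of 10000 to 20000 UMIs.

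The 2 libraries also filled different clusters. The 5 clusters with at least 50 gated keratinocytes of each library held 2934 of 3793 KO keratinocytes (77.35%) and 2948 of 8583 WT keratinocytes (34.35%). Most WT keratinocytes lay outside them, some in clusters with almost no KO cell such as cluster 1 (12 KO and 2151 WT cells) and cluster 3 (3 and 1708 cells). In the shared clusters 0, 5, 6 and 19 all 4 Id genes were called higher. Cluster 0, with 750 KO and 1461 WT keratinocytes, had Id1 at 656.6 CPM in KO and 114.6 CPM in WT and Bmp2 at 134.2 and 79.4 CPM. Grem1 was called lower in clusters 5, 6 and 19 but not in cluster 0 (ratio 1.10, 0.896 to 1.34), nor in cluster 15 (0.4455, 0.166 to 1.02). In cluster 15, which was named sebaceous from its markers, Id2 alone of the Id genes was called, and Id1 had 11.4 CPM in KO and 12.85 CPM in WT. Over clusters 0, 5, 6, 15 and 19, all measured genes were called higher for 15.2%, 9.29%, 12.9%, 6.93% and 16.9% and lower for 12.1%, 7.62%, 9.86%, 15% and 8.18%.

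The fibroblasts were divided more sharply, since cluster 7 held 23 KO and 1438 WT cells and cluster 2 held 1636 and 98. Shared clusters held 2242 of 2468 KO fibroblasts (90.8%) and 805 of 2202 WT fibroblasts (36.6%). Id1 was called higher in all 3 of them, at 14.1 and 2.34 CPM (1 UMI in WT) in cluster 2, 30.4 and 12.1 CPM in cluster 8, and 98.4 and 61.3 CPM in cluster 12, KO and WT in turn. Id3 and Id4 were called lower in cluster 2, where only 69 gated WT fibroblasts were left, with Id3 at 209.0 CPM in KO and 440.4 CPM in WT. Id4 was called higher in clusters 8 and 12. Grem1 had ratios of 1.07 and 1.01 in clusters 2 and 12 and of 0.1765 in cluster 8, so Grem1 was called lower in 1 of the 3 shared clusters. All measured genes were called higher for 5.99%, 10.8% and 8.6% and lower for 4.98%, 6.92% and 7.77% in clusters 2, 8 and 12.

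Other BMP target genes, Smad6 and Bambi among them, were listed to set beside the Id genes. In keratinocytes 6 of 10 were called higher and 0 lower, with a median log2 ratio of 0.93, beside 12.4% and 11.2% of all measured genes. Dlx3, a homeobox gene of the hair follicle and upper epidermis, had the largest ratio at 2.65 CPM in KO and 0.556 CPM in WT, 4.76-fold (3.53 to 6.50), and Hes1 had the most UMIs at 371.5 and 304.6 CPM, not called. In fibroblasts 4 of 9 were higher and 2 lower (median 0.14), beside 13.2% and 7.38% of all measured genes. Hes1, a target of Notch as well, was at 384.4 CPM in KO and 138.7 CPM in WT fibroblasts, 2.77-fold higher (2.64 to 2.91). Gata2 was the lowest, with 0.0597 and 1.285 CPM. Of the E proteins, the partners of Id, Tcf4 was called higher in keratinocytes at 51.8 CPM in KO and 32.3 CPM in WT, and 0 of 3 was called in fibroblasts.

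Genes of the sister TGF-beta pathway and of rapid cell responses were counted beside them. Of all measured genes, 12.4% were called higher and 11.2% lower in keratinocytes, and 13.2% and 7.38% in fibroblasts. TGF-beta and activin ligands and receptors had 1 of 8 higher and 2 lower in keratinocytes (median log2 ratio -0.14) and 2 of 9 higher and 2 lower in fibroblasts (median -0.01). In keratinocytes the share called higher was near that over all measured genes. Inhba, the activin A subunit, was lower in both classes, with 17.4 CPM in KO and 48.9 CPM in WT keratinocytes and 112.0 and 227.8 CPM in fibroblasts. TGF-beta target genes, Smad7 among them, had 4 of 10 higher and 0 lower in keratinocytes (median 0.44) and 6 of 10 higher and 1 lower in fibroblasts (median 0.61). Ctgf, a matrix protein gene also driven by YAP, stood at 126.9 CPM in KO and 18.2 CPM in WT fibroblasts, 6.96-fold higher (6.18 to 7.87).

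Immediate early genes, which dissociation and handling can also raise, were called higher for 17 of 20 in keratinocytes (median log2 ratio 0.97) and 13 of 20 in fibroblasts (median 0.67), with 0 lower. Heat shock genes had 7 of 11 higher in keratinocytes (median 0.94) and 9 of 11 in fibroblasts (median 0.76), again with 0 lower. The shares of all measured genes called higher were 12.4% in keratinocytes and 13.2% in fibroblasts. Egr1 stood at 1331.3 CPM in KO and 403.9 CPM in WT keratinocytes, and Hspa1a at 732.3 and 166.2 CPM. In the 5 keratinocyte depth bins, from the shallowest to the deepest, 17, 17, 16, 8 and 17 of 20 immediate early genes and 7, 7, 7, 5 and 8 of 11 heat shock genes were called higher. In fibroblast cluster 2 (1410 KO and 69 WT gated cells), 0 of 20 immediate early genes were called higher and 1 lower, and 1 of 11 heat shock genes higher. Fibroblast clusters 8 and 12 had 9 and 5 of 20 immediate early genes and 10 and 5 of 11 heat shock genes higher. Keratinocyte clusters 0, 5, 6, 15 and 19 had 16, 10, 12, 6 and 16 of 20 immediate early genes higher. They had 7, 3, 8, 6 and 4 of 11 heat shock genes and 4, 4, 4, 1 and 4 Id genes higher. In dermal papilla-like cells 16 of 20 immediate early and 10 of 11 heat shock genes were higher, beside 11.1% of all measured genes. Id1 is itself known as a serum-induced gene, and the part of such a response in the Id values was not tested. T cells had 4 of 20 immediate early genes higher and 1 lower, and 0 of 11 heat shock genes higher and 3 lower. Of all measured genes in T cells, 9.81% were called higher and 4.19% lower. Of the Id genes there, Id1 (24 KO and 3 WT UMIs) and Id3 (91 and 13 UMIs) were called, at 6.13% and 7.13% of the highest class for Id1 and 11.45% and 6.58% for Id3, which free RNA can reach. The Id1 call held in 7 of 10 alternatives.

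**Figure D4:**
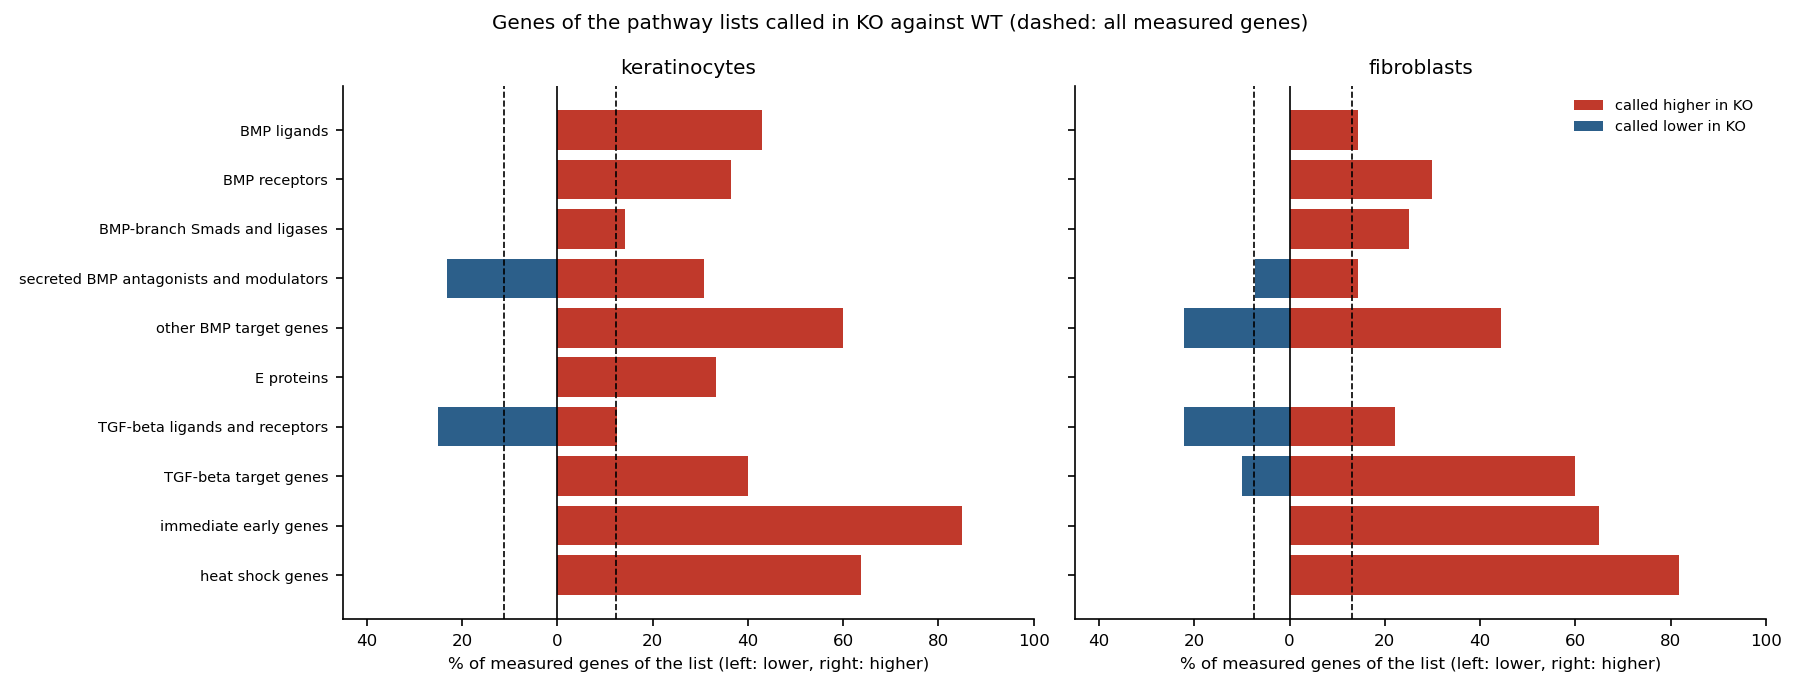
Share of the measured genes of each list called higher in KO (red, to the right) or lower in KO (blue, to the left) in keratinocytes and fibroblasts; dashed lines mark the shares over all measured genes. In keratinocytes immediate early genes (17 of 20), heat shock genes (7 of 11) and BMP target genes (6 of 10) lie farthest to the right.

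Across the 18 sums of 9 classes in 2 libraries, the levels of the members were correlated in pairs on a log2(CPM + 10) scale. Pearson's r was 0.59 between Id1 and Id3, 0.59 between Id3 and Id4 and 0.56 between Id1 and Id4, whereas Id2 had -0.38 with Id1. Bmp4 had 0.77 with Bmp2, 0.76 with Smad6 and 0.70 with Smad7. Bmp2 had 0.70 with Smad6 and also 0.70 with Id4, above the values of Id4 with Id1 and Id3. The pairs therefore do not set the Id genes apart from the other members. Of 6299 genes compared, those most like Id1 were Hspb1 (0.876), Pim3 (0.869), Jag1 (0.861), Pou3f1 (0.785) and Pde12 (0.780). Hspb1 is a small heat shock protein gene, and Jag1 encodes a Notch ligand of the epidermis. Those most like Id3 were Cyp4b1 (0.862), Adamts1 (0.845), Nop58 (0.824), Mt2 (0.812) and Phldb2 (0.811), and those most like Bmp4 were Lamc3 (0.974), Ltbp1 (0.973), Ptgfr (0.969), Dnm3os (0.967) and Cdh11 (0.964). These are descriptions, since the points share 2 libraries and differ in depth, and by Spearman's measure 2, 2 and 0 of these 5 stayed among the first 5.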

How the data were processed

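Single-cell RNA libraries of imiquimod-treated back skin, 1 of KO and 1 of WT mice, were measured by droplet sequencing. The deposited matrices hold raw UMI counts per gene and barcode. Reads were processed with Cell Ranger 3.0.2 against mm10, and Seurat 3.0 is named too, per the submitters' processing notes; the matrix headers carry software version 3.1.0, per the file headers. The authors' cell types are not used here. The members, gene lists and tests were chosen with earlier results of these data known, and the gate thresholds were set on histograms after the data had been seen.

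Barcodes under 200 detected genes or above 10% mitochondrial UMIs were dropped. A cell entered a class when UMIs of at least 3 of its markers were present (2 for subsets) and their sum per 10000 UMIs passed the gate. Cells past 2 gates (270 KO and 528 WT) were left out, as were cells past none (1554 KO and 1163 WT). Scrublet's automatic threshold marked 0.655% of KO and 0 WT cells, so doublets were removed only in an alternative that drops the 891 KO and 1623 WT cells of highest score. Counts were summed per class and library, and ratios carry exact 95% conditional intervals. The code was tested on simulated data. Thinned shares draw 1000 UMIs per cell, leaving out 628 KO and 2312 WT shallower cells. With 1 library per genotype no test between groups was made.

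From each list, the gene with the highest CPM and the called genes with the largest ratio each way were named in keratinocytes and fibroblasts, and the 5 genes most like Id1, Id3 and Bmp4 by Pearson's r; genes named beyond that were chosen after their values were seen. The alternatives changed the gates, clustering, cell filters, doublets, scale, thinning, weighting and call rule. Cells of 10000 to 20000 UMIs, removal of the 49 shared barcodes, depth bins and shared clusters were added after seeing the data. Clusters came from 2000 variable genes, 30 components, 15 neighbours and Leiden at resolution 1. Python 3.11.15, numpy 2.4.6, scipy 1.17.1, pandas 2.3.3, scanpy 1.11.5, leidenalg 0.10.2 and matplotlib 3.10.9 were used. Gene positions are from GENCODE for mm10.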

Additional observations from a re-analysis of the deposited data

Results flagged for a closer look

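Bmp2 in sebaceous cells had a log2 ratio of -3.92, from 5 UMIs in KO and 56 UMIs in WT, whereas it was called higher in KO in keratinocytes, macrophages, vascular endothelial cells and dermal papilla-like cells. It was listed because its direction was opposite to that of the other called classes, and the difference between classes was not tested. A single WT cell held 47 of the 56 UMIs, and with each cell weighted alike the log2 ratio was -1.96.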

How the results depend on the processing

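The calls of the 4 Id genes in keratinocytes held under all 11 alternatives, with log2 ratios of 2.06 to 2.45 for Id1, 1.05 to 1.82 for Id2, 0.70 to 1.40 for Id3 and 1.12 to 1.95 for Id4. Grem1 in keratinocytes (-1.68 to -1.11) and Id1 in fibroblasts (1.07 to 1.77) also kept their calls in all 11, Bmp2, Smad7 and Bambi in keratinocytes in 10, Grem1 in fibroblasts in 9 and Bmp4 in keratinocytes in 8. In keratinocytes of 10000 to 20000 UMIs, 5 members were called where all keratinocytes gave 9. In fibroblasts a 2-fold rule called 3 where the 1.5-fold rule called 7. In macrophages 3 members were called, against 5 with clusters in place of gates and with no minimum of UMIs, and 1 with a stricter gate, with doublets removed, with thinned cells and with a 2-fold rule. After thinning, log2 ratios turned to -0.20 for Bmp2 in macrophages, -0.29 for Id1 in lymphatic endothelial cells and -0.43 for Bmp2 in dermal papilla-like cells. Grem1 in sebaceous cells turned to 0.73 with doublets removed, 0.29 after thinning and 0.77 with each cell weighted alike. The median log2 ratio of the Smads and their ligases in fibroblasts turned to 0.03 over genes of at least 50 UMIs. The cause of these changes was not tested, except that thinning leaves fewer UMIs. Thinning lost 23 calls of 71 values, and removing the shared barcodes lost 0 of 76. No paired analysis was possible because each genotype has 1 library, and for the same reason no library could be left out. Depth limits the small classes, where fewer than 20 UMIs gave no call.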

Other observations

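In the classes left out for holding fewer than 50 WT cells, the members kept a pattern of their own by cell type. Pericytes and smooth muscle cells (150 KO and 39 WT cells), the contractile cells of vessels, had Id1 at 240.4 CPM in KO and 303.1 CPM in WT, Id2 at 485.6 and 363.7 CPM, Id3 at 1712.8 and 2153.6 CPM and Id4 at 188.9 and 139.1 CPM. For Id1 and Id4 the interval of the KO over WT ratio held 1, and that of Id3 ran from 0.7195 to 0.880. Id1 and Id3 were thus not higher in KO in this class, whereas Id2 had the higher level in KO, with few WT cells behind the values.

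Schwann cells (161 and 28 cells), the glia of skin nerves, had Id4 at 103.8 CPM in KO and 86.4 CPM in WT, second to pericytes among the 13 classes in both libraries. Bambi was at 169.1 CPM in KO and 129.6 CPM in WT there, above the lymphatic endothelial cells of the same library. Id3 was at 559.2 and 359.9 CPM, and Id1 at 133.9 and 172.8 CPM. Langerhans cells (37 and 30 cells), which need Id2 to develop, had Id2 at 601.0 CPM in KO and 759.3 CPM in WT, with Id1 at 4 and 6 UMIs. Mast cells (40 and 33 cells) had Id2 at 1162.8 and 709.5 CPM from 76 and 25 UMIs, and 0 UMIs of Id1 and Id4 in either library, with upper interval ends of 56.4 CPM in KO and 104.7 CPM in WT.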
